A study of Mus musculus with 58 samples.

Results

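The promoters described here are those with the strongest H3K4me3 in HSCs of old CR mice. They were chosen by a mean H3K4me3 signal of at least 40 and a mean H3K27me3 signal below 0.5 at the TSS of a transcript, each in both OCR replicates, and 1746 of 31552 promoters (5.53%) met the rule. They covered 1611 distinct windows of 30009 and belonged to 1506 genes of 25127 (5.99%), of which 1497 had RNA counts. The signal is a mean per base, scaled by the authors to a common number of reads per library, over 750 bases downstream of the TSS for H3K4me3 and over 2000 bases for H3K27me3.

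H3K4me3 is placed on the nucleosomes that follow the start site of transcribed genes, mostly by the SET1 and MLL methyltransferases, whose complexes bind unmethylated CpG islands. H3K27me3 is placed by Polycomb and marks silent genes, and genes with both marks are often called bivalent. In stem cells the strongest H3K4me3 usually sits at housekeeping genes and at genes that define the cell, and the mark is a correlate of transcription and of CpG content that is not by itself a measure of RNA output.

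HSCs (LSK CD34- Flk2- CD150+) were sorted from the bone marrow of C57BL/6 male mice. Old mice, aged 24 to 26 months, were fed ad lib throughout (OAL, 4 RNA-seq libraries), kept on lifelong 40% CR (OCR, 4 libraries), or returned to ad lib food for 4 weeks after lifelong CR (OCRRF, 2 libraries). Young mice, aged 3 to 4 months, were fed ad lib (YAL, 4 libraries), kept on short-term CR that was milder in its first week and 40% afterwards (YCR, 4 libraries), or refed for 4 weeks after it (YCRRF, 4 libraries). Both marks were read in 2 OCR libraries each, so that the choice of promoters rests on old CR HSCs alone, and ATAC-seq was used from OCR (4 libraries) and OCRRF (2 libraries) and PU.1 ChIP-seq from OAL, OCR and OCRRF (2 libraries each). The study counts the old RNA-seq libraries as mice, and the labels do not say whether a library was made from 1 mouse or from pooled cells, so the spread between libraries may be partly technical.

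RNA-seq libraries held 11102898 to 36579392 counts on genes, and all 12 stem cell marker genes, among them Kit, Slamf1, Procr and Mecom, were detected in every library, with a summed level of 4433 to 6049 CPM (counts scaled to a common total per library). The 31 marker genes of other or gated-out blood and stroma cells summed to 471 to 1600 CPM. Cd34 (101 to 197 CPM) and Itga2b (102 to 252.5 CPM) were part of that sum. The myeloid gene Mpo reached 8.92 CPM in the old groups, and 209.6 CPM (YAL), 89.2 CPM (YCR) and 243.5 CPM (YCRRF) in the young. The globin gene Hbb-bs went the other way, with up to 118 CPM in OAL and up to 42.4 CPM in the young groups. Olfactory receptor genes, which HSCs are not known to use, had summed levels of 331 to 468 CPM (OAL), 354 to 716 CPM (OCR), 667 to 843 CPM (OCRRF) and 53.9 to 350.2 CPM (young groups). In YCRRF replicate 3 the median ribosomal protein gene of the selected set stood at 1220 CPM against 363 to 479 CPM in the other YCRRF libraries.

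CpG density and short motifs of the selected starts can be read from their sequence, and 9 promoters are printed for them. Each runs from 250 bases before to 50 bases after the TSS in GRCm38 (mm10), 5′ to 3′ on the gene's strand, as read from RefSeq's assembly. Capitals mark every match, on either strand, to 1 of 10 motifs. These are the TATA box TATAAA, the GC box read as GGGCGG, the ETS site read as CCGGAAG, the PU.1 core read as GAGGAAG, the NRF1 core read as GCGCATG, the YY1 core read as ATGGCGG, the NF-Y site read as CCAAT, the CRE read as TGACGTCA, the E-box read as CACGTG and the element with letters TCTCGCGA. Clk1, Cfl1 and B2m are shown as the 3 genes with the highest mean H3K4me3 of both replicates, Rpl5 as the highest ribosomal protein gene, and Smndc1, a splicing factor gene, as the promoter with the highest signal among those that hold TCTCGCGA. Txnip, Arrdc4, Hspa5 and Dtl, chosen after their values were seen, are shown as genes whose RNA was called in both comparisons of old mice.
Clk1, chr1:58424039-58424338, minus strand: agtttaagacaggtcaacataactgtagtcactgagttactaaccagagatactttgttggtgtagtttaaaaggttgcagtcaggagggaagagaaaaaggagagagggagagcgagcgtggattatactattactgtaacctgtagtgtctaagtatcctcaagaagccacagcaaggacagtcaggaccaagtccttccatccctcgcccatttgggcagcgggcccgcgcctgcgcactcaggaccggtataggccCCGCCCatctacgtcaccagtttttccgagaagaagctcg
Cfl1, chr19:5490205-5490504, plus strand: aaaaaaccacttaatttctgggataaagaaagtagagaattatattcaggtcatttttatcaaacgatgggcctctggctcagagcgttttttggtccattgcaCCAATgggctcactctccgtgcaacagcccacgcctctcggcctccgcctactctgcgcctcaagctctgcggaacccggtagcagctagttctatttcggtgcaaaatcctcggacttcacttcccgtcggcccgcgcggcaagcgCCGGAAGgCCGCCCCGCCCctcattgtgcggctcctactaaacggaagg
B2m, chr2:122147437-122147736, plus strand: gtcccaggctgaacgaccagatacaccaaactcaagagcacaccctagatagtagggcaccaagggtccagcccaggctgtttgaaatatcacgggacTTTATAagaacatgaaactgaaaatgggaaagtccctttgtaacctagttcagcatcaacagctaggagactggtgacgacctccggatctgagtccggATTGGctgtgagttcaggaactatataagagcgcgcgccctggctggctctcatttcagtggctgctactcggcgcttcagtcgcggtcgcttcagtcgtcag
Rpl5, chr5:107900278-107900577, plus strand: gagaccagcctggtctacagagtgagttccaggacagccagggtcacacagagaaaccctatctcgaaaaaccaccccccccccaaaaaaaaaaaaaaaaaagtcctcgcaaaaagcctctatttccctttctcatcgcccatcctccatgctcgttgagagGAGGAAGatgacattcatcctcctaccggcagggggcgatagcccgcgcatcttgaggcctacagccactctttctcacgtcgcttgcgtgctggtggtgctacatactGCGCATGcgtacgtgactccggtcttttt
Smndc1, chr19:53390585-53390884, minus strand: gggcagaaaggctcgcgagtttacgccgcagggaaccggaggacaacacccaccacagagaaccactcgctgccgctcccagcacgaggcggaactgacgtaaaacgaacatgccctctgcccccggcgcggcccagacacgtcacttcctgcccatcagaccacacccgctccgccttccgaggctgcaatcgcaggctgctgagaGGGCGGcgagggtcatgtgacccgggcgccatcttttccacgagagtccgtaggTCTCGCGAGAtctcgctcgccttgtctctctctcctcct
Txnip, chr3:96557707-96558006, plus strand: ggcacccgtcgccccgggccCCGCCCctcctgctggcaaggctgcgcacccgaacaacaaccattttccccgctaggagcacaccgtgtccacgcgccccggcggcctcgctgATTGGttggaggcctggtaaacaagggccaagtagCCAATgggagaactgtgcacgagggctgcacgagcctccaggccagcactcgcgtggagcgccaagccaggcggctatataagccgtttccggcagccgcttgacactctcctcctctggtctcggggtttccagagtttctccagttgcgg
Arrdc4, chr7:68749189-68749488, minus strand: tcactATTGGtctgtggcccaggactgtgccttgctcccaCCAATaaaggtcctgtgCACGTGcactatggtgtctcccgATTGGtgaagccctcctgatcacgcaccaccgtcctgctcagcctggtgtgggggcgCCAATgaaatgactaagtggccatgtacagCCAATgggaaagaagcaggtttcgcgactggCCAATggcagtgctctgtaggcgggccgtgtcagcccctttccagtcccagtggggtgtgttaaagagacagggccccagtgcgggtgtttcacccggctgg
Hspa5, chr2:34771840-34772139, plus strand: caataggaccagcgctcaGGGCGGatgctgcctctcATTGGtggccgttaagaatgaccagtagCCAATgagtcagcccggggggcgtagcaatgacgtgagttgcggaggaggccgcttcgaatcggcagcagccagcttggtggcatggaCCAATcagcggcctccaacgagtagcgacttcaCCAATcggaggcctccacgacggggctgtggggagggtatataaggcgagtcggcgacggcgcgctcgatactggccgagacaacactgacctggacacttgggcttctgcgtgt
Dtl, chr1:191575495-191575794, minus strand: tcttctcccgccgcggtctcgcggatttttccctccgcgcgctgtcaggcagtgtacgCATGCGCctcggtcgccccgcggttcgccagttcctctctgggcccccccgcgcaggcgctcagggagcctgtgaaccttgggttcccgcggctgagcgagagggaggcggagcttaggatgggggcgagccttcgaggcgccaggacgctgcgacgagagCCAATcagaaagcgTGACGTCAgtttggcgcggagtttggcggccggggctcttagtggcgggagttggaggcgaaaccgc

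Arrdc4 carried 6 CCAAT boxes and 1 E-box in these 300 bases, with the boxes 52 to 245 bases before the TSS, and Hspa5 carried 4 CCAAT boxes between 65 and 214 bases before it. Txnip held 2 CCAAT boxes, at 137 and 102 bases before the TSS. B2m was the only printed promoter with a match to the letters TATAAA, on the opposite strand 152 bases upstream. The letters TATATAAG, which that motif does not match, stand in the printed B2m, Txnip and Hspa5 and were not counted. Dtl held CCAAT 31 bases and TGACGTCA 17 bases before the TSS. In Smndc1 both TCTCGCGA matches lay on opposite strands of 1 overlapping element just downstream of the TSS. A match is a run of letters and was not tested for binding.

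Among all 1611 distinct selected starts, the median GC content of the 300 bases was 62.7%, against 62.0% at starts with H3K4me3 of 20 to under 40 and 55.7% at all 29962 starts with sequence. The contrast was larger downstream, where H3K4me3 was measured. The 750 bases after the TSS held a median of 63 CpGs at the selected promoters, 46 in the class of 20 to under 40, 25 in the class of 5 to under 20, 8 under a signal of 1, and 25 over all promoters. Starts rich in CpG (GC content of at least 50% and observed over expected CpG of at least 0.6) made up 85.5% of the selected set, 77.8% of the next class and 41.9% of all.

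TCTCGCGA was found in 5.77% of the selected starts (93 of 1611), 2.45% of those with H3K4me3 of 20 to under 40, 0.297% of those under 1 and 1.23% of all starts. GGGCGG was found in 71.2% of the selected starts and 43.7% of all, CCGGAAG in 20.6% and 10.6%, GCGCATG in 9.06% and 4.41%, ATGGCGG in 12.0% and 4.93%, TGACGTCA in 4.78% and 2.21%, and CACGTG in 11.9% and 7.73%. CCGGAAG was more frequent still in the class of 20 to under 40, at 23.0%. CCAAT was about as frequent in every class, from 36.5% to 38.8% (38.2% of the selected, 37.4% of all), and GAGGAAG stood at 14.6% and 13.3%. TATAAA was found in 7.57% of the selected starts, 5.15% of the class of 20 to under 40 and 12.5% of all starts. A second start on the opposite strand within 1 kb upstream was annotated at 17.4% of the selected promoters, 19.5% of the class of 20 to under 40 and 10.3% of all promoters. These classes were set by the H3K4me3 values themselves, and the shares are given as a description.

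H3K4me3 at the selected promoters ranged from 40.0 to 72.7 in replicate 1 (median 45.6) and from 40.0 to 62.0 in replicate 2 (median 44.0), where all promoters had medians of 10.2 and 9.64. Replicate 1 was higher at 68.8% of them, and the larger value exceeded the smaller by a median factor of 1.04 and at most 1.60. That largest gap was at Btaf1 (72.7 and 45.4), whose product removes TBP from DNA. The median H3K27me3 was 0.141 and 0.139 in the 2 replicates, against 0.312 and 0.316 over all promoters.

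Clk1, a kinase of SR splicing factors, led with 63.1 and 59.3. Cfl1, the actin-severing protein cofilin, had 59.9 and 62.0, B2m, the light chain of MHC class I, 61.3 and 59.8, and Hnrnpu, a nuclear RNA-binding protein, 60.5 and 59.97. Rsrp1 (61.0 and 58.8), 2610005L07Rik (58.3 and 60.3), Btaf1 and Ewsr1 (60.1 and 57.8) completed the leading 8 genes. At the limit, Pqlc1 (43.1 and 40.0) was just inside, and Cul1 (42.5 in replicate 1) and 2610306M01Rik (42.8 and 39.996) were just outside through replicate 2. A further 846 promoters passed 40 in 1 replicate only.

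The H3K27me3 limit removed 36 of 1782 promoters that met the H3K4me3 limit. They included 9 with more H3K4me3 than any selected promoter, among them the pseudogene Pisd-ps3 (487 and 423), Hjurp (198 and 195), Mir101c (91.0 and 99.9), Rn45s, the ribosomal RNA repeat (86.1 and 77.7), and the MHC genes H2-Q6 to H2-Q9. The methods name uniquely mapped, de-duplicated reads for peak calling on these libraries.

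**Figure D1:**
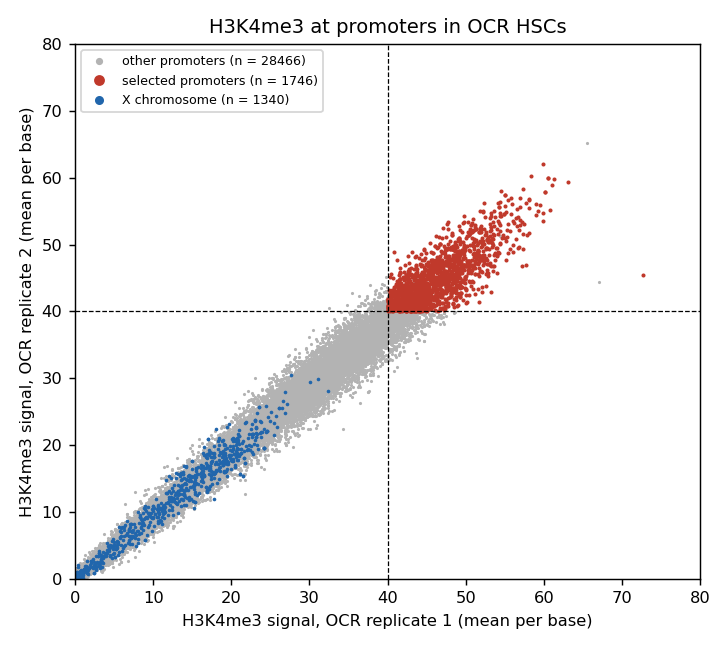
H3K4me3 signal (mean per base over 750 bases after the TSS) in OCR replicate 1 (x axis) and replicate 2 (y axis), 1 point per promoter, with the limit of 40 as dashed lines and both axes cut at 80, which leaves out 9 promoters. The 1746 selected promoters (red) fill the corner above 40 in both replicates, and none of the 1340 X-linked promoters (blue) reaches it.

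No selected promoter lay on the X chromosome, which holds 1340 promoters and is present in 1 copy in these male mice. Its highest signal was at Ogt, the enzyme that adds O-GlcNAc to proteins, with 31.1 and 29.95. Among promoters with a signal above 5, the median was 16.7 on the X (n = 495) and 30.7 on the autosomes (n = 12808). Protein-coding genes with a promoter of H3K27me3 below 0.5 and RNA at or above the median of the selected genes were also compared. The 102 X-linked genes had a median H3K4me3 of 19.5 and the 2730 autosomal genes a median of 35.9, with 0 and 714 (26.2%) selected. The median RNA level of these same genes was 34.8 RPKM on the X and 33.6 RPKM on the autosomes, where RPKM is CPM per kb of exon. The share of selected promoters per autosome ran from 3.65% on chromosome 7 to 8.10% on chromosome 11.

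By RefSeq's gene type, 1432 of the 1506 genes code for proteins, 46 are lncRNAs, 13 miRNAs, 11 transcribed pseudogenes and 3 snoRNAs. Of the 16 miRNA and snoRNA genes, 10 start within 1 kb of the start of a selected protein-coding gene, such as Mir8114 at 3 bases from Glul and Mir8112 at 6 bases from Krcc1. The window of such a small gene overlaps that of its neighbour in part or in whole where the starts lie less than 750 bases apart, and for Mir7045, at 861 bases from Chd4, it does not. There were 101 genes with 2 or more selected windows, and Eif5a had 5.

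The classes of genes that held the most selected promoters were those of gene expression and protein making. Cytosolic ribosomal protein genes stood first with 66 of 82 (80.5%), and the other 16 all had a signal of 20 to under 40. The list's median signal was 47.7 and its range 21.5 to 58.0, and Rpl5 (60.8 and 55.2) and Rpl4 (55.0 and 57.5) led. Splicing factors followed with 35 of 71 (49.3%), led by Hnrnpu and Hnrnpa2b1 (55.9 and 56.1), then proteasome subunits with 16 of 42 (38.1%), chaperones with 25 of 70 (35.7%), snoRNA host genes with 7 of 20 (35.0%) and translation factors with 23 of 71 (32.4%), led by the RNA helicase gene Eif4a1 (55.8 and 56.9).

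Regulatory genes were also present. Of 36 immediate early and AP-1 genes, 12 were selected (33.3%), with Ier2 (50.2 and 51.3), Jun (44.0 and 41.2) and Junb (43.6 and 43.3) among them. Of 51 transcription factors of blood stem cells, 13 were selected (25.5%): Mycn, Fli1, Nfe2, Gata2, Tal1, Runx1, Myb, Erg, Meis1, Etv6, Lmo2, Foxo3 and Etv3. Mycn, a MYC family factor, had 52.1 and 50.3, and Fli1, an ETS factor, had 51.1 and 49.3. Of 12 stem cell markers, Kit (52.8 and 50.7), the receptor of stem cell factor, and Gata2 were selected.

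Other lists had shares from 29.4% for glycolysis down to 0. Among those with a selected gene, mitochondrial ribosomal proteins and p53 targets were below the 5.99% of all genes, and the rest were above it. Mitochondrial ribosomal proteins had 3 of 78 (3.85%), with 73 in the class of 20 to under 40 and a median signal of 31.1. Aminoacyl-tRNA synthetase genes had 3 of 22 (13.6%) and oxidative phosphorylation genes 17 of 79 (21.5%), led by subunits of the ATP synthase. Glycolysis had 5 of 17, the H3K4 methyltransferase and demethylase complexes 4 of 19 (Kdm5a, Kdm5b, Men1 and Wdr82), interferon-stimulated genes 4 of 32, S phase genes 4 of 45, G2/M genes 4 of 56, Polycomb and H3K27 demethylase genes 2 of 30 and p53 targets 1 of 19 (Mdm2). None was selected of 1112 olfactory receptor genes, of 30 markers of other cells, of 18 genes, such as Kdr and Bmpr1a, taken from those the study discusses, or of 9 histone genes under their older symbols. The histone list missed genes under newer symbols, such as H2ac21, which was selected. The lists held 244 of the 1506 genes, and 1262 were in none.

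**Figure D2:**
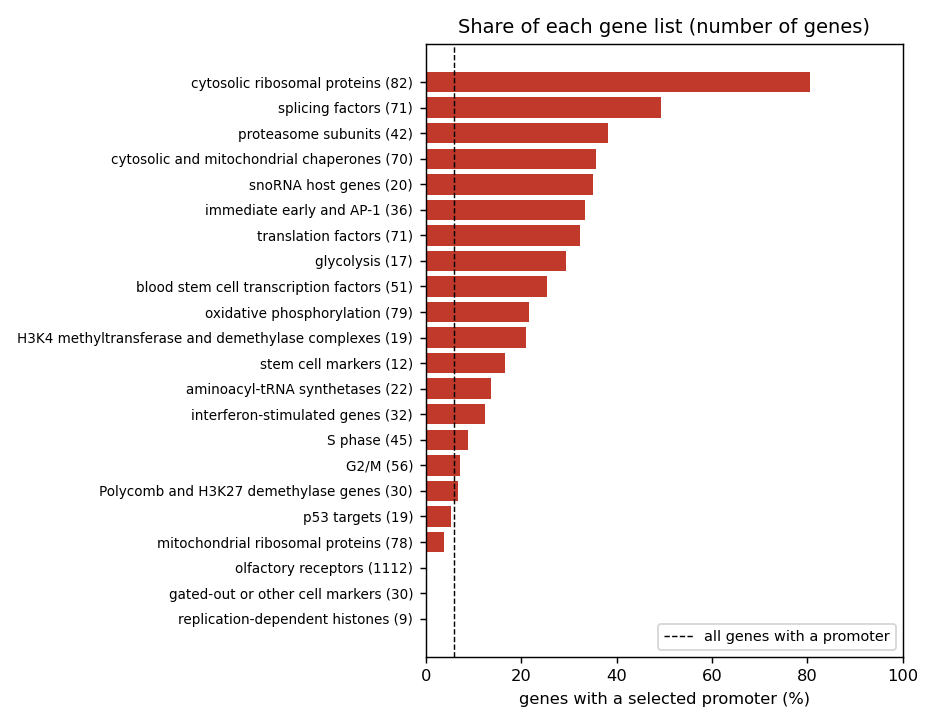
Share of the genes of each list that have a selected promoter (bars, x axis in percent, from 0), with the number of genes in the list in parentheses and the share over all genes with a promoter (5.99%) as a dashed line. Cytosolic ribosomal protein genes reach 80.5%, and the lists of olfactory receptors, other cell markers and histone genes (older symbols only) are at 0.

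Selected promoters belonged to genes with much RNA. In OCR, the 1428 selected protein-coding genes with an exon length had a median of 19.2 RPKM (5th percentile 3.88, 95th 183), against 1.35 RPKM over all 21782 protein-coding genes, and 98.7% lay above that median. On the scale of log2(RPKM + 1), the library medians over the selected genes were 4.32 ± 0.087 in OCR (SD, n = 4), 4.34 ± 0.030 in OAL (n = 4), 4.19 ± 0.032 in OCRRF (n = 2), 4.45 ± 0.044 in YAL, 4.44 ± 0.054 in YCR and 4.44 ± 0.060 in YCRRF (n = 4 each). The OCR median was 3.56 ± 0.071 for genes with H3K4me3 of 20 to under 40, 2.66 ± 0.040 for 5 to under 20, 1.22 ± 0.025 for 1 to under 5 and 0.197 ± 0.055 under 1. In all 22 libraries the order of these classes was the same.

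Within the selected set the RNA level was higher at a higher signal. Genes were grouped by the H3K4me3 of their lower replicate. The median was 15.7 RPKM at 40 to 42 (468 genes), 17.3 RPKM at 42 to 45 (428), 22.3 RPKM at 45 to 50 (407) and 47.8 RPKM at 50 and over (125). Spearman's rho between the mean signal of both replicates and RNA was 0.230 across the 1428 selected genes. It was 0.647 across the 12349 protein-coding genes that had an exon length and a promoter with H3K27me3 below 0.5. These are correlations across genes, which are not independent replicates, and the 2 assays came from different libraries. Of the 100 genes with the most RNA per kb in OCR among the same 12349 genes, 66 were selected. Selected genes took 26.3% to 28.9% of all counts of a library.

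**Figure D3:**
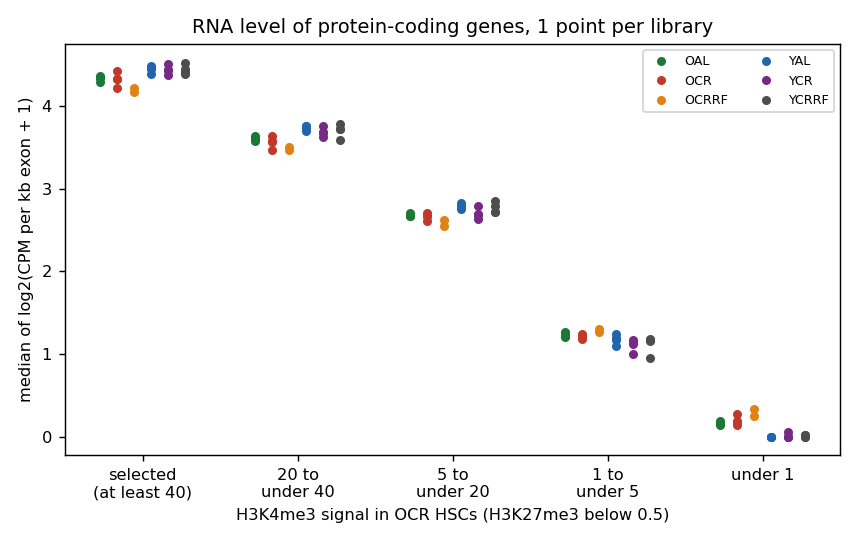
Median RNA level of protein-coding genes on the log2(CPM per kb of exon + 1) scale (y axis) by H3K4me3 class (x axis), 1 point per library and 1 colour per diet group. The selected genes sit at 4.17 to 4.52 in the 22 libraries, above every lower class.

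Among the selected genes, the highest RNA levels in OCR were those of B2m (3029 RPKM), Actb (1294 RPKM), the elongation factor gene Eef1a1 (1176 RPKM), the MHC class I gene H2-D1 (962 RPKM) and Rpl32 (957 RPKM). At the other end, 16 of the 1428 genes, which are protein-coding by GENCODE's gene type, were under 1 RPKM. Exons of other genes covered more than 50% of the exon bases in 11 of these 16 genes, against 22 of all 1428 (1.54%). The lowest were Gm20716 (listed at 0 in all libraries, with 100% of its exon bases covered), Pagr1a (0.0258 RPKM, 98.7% covered), Cpne1 (0.0358 RPKM, 84.1%) and Nupl1 (0.133 RPKM, 55.4%). 4933427D14Rik (0.165 RPKM) had no covered exon base. How the counting treated reads in overlapping genes is not given in the sources used here, and its part in these low values was not tested.

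The first diet question was which of these genes changed their RNA with lifelong CR. Counts of all genes were fitted with edgeR's quasi-likelihood test, and a gene was called at a Benjamini-Hochberg adjusted p below 0.05 over all genes tested and a fold change above 1.2. Between OCR and OAL, 113 of 1480 selected genes tested were called, 52 higher and 61 lower in OCR. Over all genes tested the share called was 5.57% (2.54% higher, 3.03% lower), and among the selected genes it was 7.64% (3.51% and 4.12%). The comparison shifts with the abundance of the genes. Restricted to a mean of 5 CPM or more, 7.80% of the selected and 11.6% of the other genes were called, and in the classes with H3K4me3 of 20 to under 40, 5 to under 20 and 1 to under 5 the shares were 9.19%, 13.7% and 12.8%. The median absolute log2 fold change of the selected genes was 0.0998, against 0.109 in the class of 20 to under 40 and 0.172 in that of 5 to under 20. For OCRRF versus OCR these medians were 0.183, 0.181 and 0.217. They were not adjusted for the abundance of the genes. With scaling factors computed from genes of at least 5 CPM, 76 selected genes were higher and 53 lower, and without OCR replicate 3 the split was 78 to 54. The libraries of OCR and OAL did not overlap at 239 selected genes (16.1%), against 11.4% of all genes tested, and at 5 CPM or more the shares were 16.4% of the selected and 20.2% of the other genes.

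**Figure D4:**
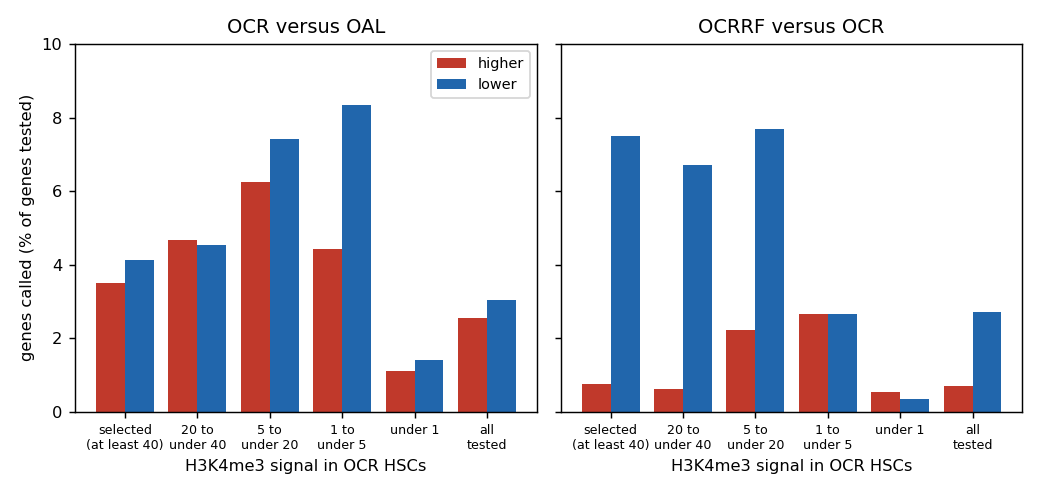
Genes called higher (red) or lower (blue) as a percent of the genes tested (y axis, from 0) in each H3K4me3 class and over all genes, for OCR versus OAL (left) and OCRRF versus OCR (right), which share the OCR libraries. For OCR versus OAL the bars of the selected genes (3.51% and 4.12%) lie below those of the class of 5 to under 20 (6.24% and 7.41%).

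The genes lowered by CR were led by Txnip, Arrdc4, Jun and Klf10. Txnip and Arrdc4 are arrestin-family genes that restrain glucose uptake, and both are textbook targets of the sugar-sensing factor MondoA. The 4 OAL libraries held 2191, 2099, 2364 and 2678 CPM of Txnip, the OCR libraries 1114, 963, 1083 and 1208 CPM, and the OCRRF libraries 2408 and 1650 CPM. Every OCR library lay below every OAL library (-1.08 on the log2 scale, SE 0.090, adjusted p = 2.99e-09 by edgeR), and both OCRRF libraries lay above the OCR range (0.84, SE 0.129, adjusted p = 2.99e-05).

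Arrdc4 held 164, 156, 186 and 190 CPM under ad lib feeding, 77.9, 85.6, 103 and 94.5 CPM under CR, and 201 and 134 CPM after refeeding. The OCR libraries were again the lowest without overlap (-0.93, SE 0.090, adjusted p = 2.84e-08, and 0.84, SE 0.133, adjusted p = 5.05e-05 for OCRRF against OCR). Among young mice, Txnip ranged over 2094 to 2526 CPM (YAL), 1275 to 1918 CPM (YCR) and 1785 to 1955 CPM (YCRRF), and Arrdc4 over 151 to 183, 107 to 147 and 126 to 190 CPM. For both genes YCR lay below YAL without overlap, and neither passed the test (Txnip -0.56, SE 0.102, edgeR adjusted p = 0.0509, and Arrdc4 -0.43, SE 0.113, adjusted p = 0.182).

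Jun, the AP-1 subunit, stood at 51.9, 46.9, 52.8 and 58.0 CPM in OAL, 24.6, 20.5, 23.1 and 26.3 CPM in OCR and 73.1 and 42.2 CPM in OCRRF. The OCR libraries lay lowest without overlap (-1.13, SE 0.101, edgeR adjusted p = 7.75e-09, and 1.24, SE 0.156, adjusted p = 8.66e-07 on refeeding). Klf10, a zinc finger gene induced by TGF-beta, ranged over 264 to 335 CPM in OAL and fell to between 141 and 150 CPM with CR (-1.01, SE 0.082, adjusted p = 2.17e-09).

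Of the 12 selected immediate early genes, 6 were called lower and 0 higher in OCR, with a median log2 fold change of -0.27 against 0.023 over all genes tested. Beside Jun they were Fosl2, an AP-1 partner (-0.64, SE 0.131, edgeR adjusted p = 0.00195), Junb (-0.60, SE 0.115, adjusted p = 8.62e-04), Klf6 (-0.57), Ier3 (-0.35) and Ier2 (-0.33). The call of Ier2 was lost without OAL replicate 1 or 2 or OCR replicate 4, and that of Ier3 without OAL replicate 1, 2 or 4 or OCR replicate 2 or 4. In the young HSCs 0 of the 12 were called in either comparison.

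The other named decreases were Kcnk5, a potassium channel (-0.92, SE 0.156, edgeR adjusted p = 1.85e-04), Trim47 (-0.91, SE 0.089, adjusted p = 4.07e-08) and Plcl1 (-0.83, SE 0.145, adjusted p = 3.06e-04). Kcnk5 stood at 168, 113, 81.1 and 87.1 CPM in OAL and 44.0, 65.9, 57.2 and 67.4 CPM in OCR, and its OAL libraries spread widely while staying above OCR. Of the 13 blood stem cell factors, Mycn (474 to 574 CPM in OAL, 320 to 400 CPM in OCR, -0.55, SE 0.086, adjusted p = 7.79e-05) and Nfe2 (-0.27) were called lower and none was called higher. The call of Nfe2 was lost without OAL replicate 1 or 2 or OCR replicate 1 or 3, with factors from genes of at least 5 CPM and with at least 10 counts in every library.

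The genes raised by CR were led by S phase genes and chaperones. Dtl, which marks the licensing factor CDT1 for degradation, stood at 46.2, 44.3, 39.5 and 38.0 CPM in OAL, 112, 132, 99.9 and 86.4 CPM in OCR and 37.5 and 34.0 CPM in OCRRF. All OCR libraries lay above all others of the old mice (1.37, SE 0.107, edgeR adjusted p = 9.75e-10, and -1.65, SE 0.149, adjusted p = 1.49e-09 on refeeding). Nasp, a histone H3 and H4 chaperone, lay between 25.9 and 27.7 CPM under ad lib feeding, between 43.8 and 58.1 CPM under CR, and at 23.0 and 23.6 CPM after refeeding (0.97, SE 0.098, adjusted p = 6.78e-08). All 4 selected S phase genes, the others being Slbp, which binds histone mRNA (0.65, SE 0.091, adjusted p = 1.49e-05), and Cdca7, were called higher in OCR, with a median of 0.81.

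These are 4 of the 45 genes of the list. Cdc25a, the phosphatase that opens S phase (0.64, SE 0.106, edgeR adjusted p = 1.38e-04), Ska2, a kinetochore subunit (0.59, SE 0.105, adjusted p = 3.62e-04), and Raly, an hnRNP (0.67, SE 0.105, adjusted p = 6.86e-05), also rose. Of 4 selected G2/M genes, Smc4, a condensin subunit, was called (0.37, SE 0.087, adjusted p = 0.00684).

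Of the 25 selected chaperone genes, 5 were called higher and 0 lower, with a median of 0.12. Hsp90b1 and Hspa5 had the largest changes, and both encode chaperones of the endoplasmic reticulum. Hspa5, the BiP chaperone, stood at 355, 368, 428 and 315 CPM in OAL, 683, 683, 491 and 597 CPM in OCR and 305 and 349 CPM in OCRRF. All OCR libraries were above those of OAL and OCRRF (0.76, SE 0.102, edgeR adjusted p = 6.35e-06, and -0.97, SE 0.135, adjusted p = 5.11e-06 on refeeding). Hsp90b1, the GRP94 chaperone, stood at 281, 292, 272 and 256 CPM in OAL, 541, 566, 441 and 498 CPM in OCR and 260 and 292 CPM in OCRRF (0.91, SE 0.086, adjusted p = 2.07e-08). Its OCR libraries again lay above those of the other old groups. The other 3 were Hspa8 (0.54, SE 0.126, adjusted p = 0.00687, with overlapping libraries), Hsp90aa1 (0.34, SE 0.085, adjusted p = 0.0137) and Hspa4l. The call of Hspa8 was lost with DESeq2, and that of Hsp90aa1 without OCR replicate 1.

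Ribosomal protein genes, the list with the largest selected share, had no call. None of the 66 selected ribosomal protein genes was called in any of the 4 comparisons, and their median log2 fold changes were -0.10 (OCR versus OAL), -0.014 (OCRRF versus OCR), 0.062 (YCR versus YAL) and 0.38 (YCRRF versus YCR, where replicate 3 of YCRRF stands apart). Their median level per library ran from 309 to 413 CPM in the old groups. Splicing factors had 2 of 35 called higher in OCR (Hnrnpm 0.31, edgeR adjusted p = 0.0178, and Srsf2 0.27, adjusted p = 0.0423) and 0 lower, oxidative phosphorylation 1 of 17 (Cox5a 0.30, adjusted p = 0.0424), and the proteasome, translation, snoRNA host, glycolysis, synthetase, Polycomb, interferon and H3K4 enzyme lists 0. The call of Hnrnpm was lost without OCR replicate 1 or 2, that of Srsf2 without OAL replicate 1 or 3 or OCR replicate 1 or 2, and that of Cox5a without OAL replicate 1, 3 or 4 or OCR replicate 1 or 2. Srsf2 was also lost with DESeq2's size factors, without a filter and with a replicate block, and Cox5a with the block. The H3K4 demethylase gene Kdm5a had a log2 fold change of -0.21 (SE 0.079, adjusted p = 0.146).

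**Figure D5:**
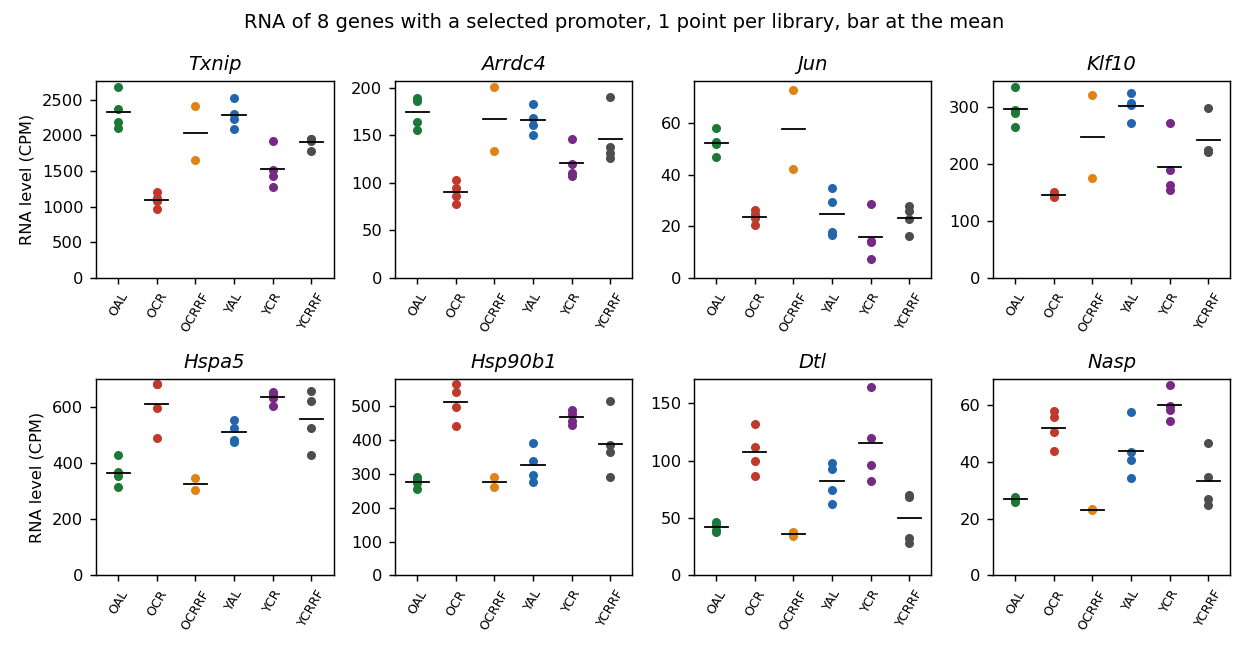
RNA level in CPM (y axis of each panel, from 0) of 8 genes with a selected promoter in the 6 diet groups (x axis), 1 point per library and a bar at the group mean. Txnip, Arrdc4, Jun and Klf10 are lowest in OCR among the old groups, and Hspa5, Hsp90b1, Dtl and Nasp are highest in OCR.

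The second question was what refeeding did. OCRRF versus OCR shares the OCR libraries with OCR versus OAL, so that a gene that happened to be high in OCR is favoured to rise in the one and to fall in the other, and the 2 comparisons are not independent. Of 1481 selected genes tested, 122 were called, 11 higher and 111 lower in OCRRF (0.743% and 7.49%), against 3.41% of all genes (0.694% higher, 2.71% lower). Among genes of at least 5 CPM the shares were 8.43% of the selected and 8.30% of the others. The median log2 fold change was -0.17 over the selected genes, -0.14 over all genes of at least 5 CPM and 0.11 over all genes tested. Both OCRRF libraries had larger olfactory receptor sums (667 and 843 CPM) than OCR replicates 1, 2 and 4 (354 to 466 CPM), while OCR replicate 3 had 716 CPM, and their part in this balance was not tested. The 2 groups did not overlap at 585 selected genes (39.5%), against 28.3% of all genes tested. At 5 CPM or more the shares were 39.6% of the selected and 34% of the other genes.

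The balance and the number both moved with the processing. With scaling factors from genes of at least 5 CPM, 24 selected genes were higher and 68 lower. The median over all genes was then 0.24 and that over the selected genes -0.034, and with DESeq2's size factors they were 0.043 and -0.24. DESeq2 called 351 selected genes (9 higher, 342 lower). No DESeq2 share over all genes is set beside this number, so it is not read as a result about the selected set. Without OCRRF replicate 1 or 2, where the lone OCRRF library is assumed to vary like OCR, 19 and 36 were called. Without OCR replicates 1, 2, 3 or 4 the numbers were 188, 60, 301 and 223.

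The 11 genes called higher on refeeding were Jun, Fosl2 (1.199, SE 0.182, edgeR adjusted p = 2.44e-05), Kcnk5 (1.05, SE 0.137, adjusted p = 1.73e-06), Arrdc4, Txnip, Plcl1 (0.83, SE 0.173, adjusted p = 0.00238), Klf10 (0.72, SE 0.143, adjusted p = 0.00148), Trim47 (0.58, SE 0.121, adjusted p = 0.00257), Junb (0.52, SE 0.139, adjusted p = 0.0263), Sema7a and Ptger4. OCRRF replicate 1 was the higher of the 2 libraries for genes such as Klf10 with 320 and 175 CPM and Fosl2 with 47.5 and 22.6 CPM. Without OCRRF replicate 1, Jun (0.74, adjusted p = 0.0269) and Kcnk5 (0.81, adjusted p = 0.00280) were still called, while Txnip (0.50, adjusted p = 0.276), Arrdc4 (0.47, adjusted p = 0.271), Fosl2 (0.52, adjusted p = 0.375), Klf10 (0.17, adjusted p = 0.726), Plcl1 (0.62, adjusted p = 0.137), Trim47 (0.53, adjusted p = 0.198) and Junb (0.22, adjusted p = 0.660) were not.

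The genes called lower on refeeding were led by Dtl, Nasp (-1.22, SE 0.143, edgeR adjusted p = 2.16e-07), Hspa5 and Hsp90b1 (-0.95, SE 0.127, adjusted p = 2.62e-06). These 4 were still called without OCRRF replicate 1, at adjusted p = 5.07e-10, 1.17e-05, 0.00316 and 0.00294. All 4 selected S phase genes were called lower, as were 3 of 4 G2/M genes, 8 of 35 splicing factors (0 higher), 4 of 25 chaperones, 2 of 17 oxidative phosphorylation genes, 1 of 23 translation factors (Eif4a3), 1 of 16 proteasome genes (Psme3) and 1 of 13 blood stem cell factors (Myb). Over the whole selected set 7.49% were called lower, a share that moved with the scaling. The calls of Hnrnpm, Srsf2, Smc4, Cox5a, Psme3 and Hsp90aa1 were lost when either refed library was left out. Those of Psme3 and Hsp90aa1 were also lost without OCR replicate 2, and that of Hsp90aa1 with factors from genes of at least 5 CPM. Hnrnpu stood at 1112, 1232, 1018 and 1079 CPM in OCR and 805 and 834 CPM in OCRRF (-0.50, SE 0.120, adjusted p = 0.0114), and Kit at 1477, 1841, 1541 and 1786 CPM and at 1260 and 1212 CPM (-0.49, SE 0.123, adjusted p = 0.0173). For both genes the refed libraries lay below all OCR libraries, and neither was called when 1 refed library was left out.

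Chromatin opening at the selected promoters was read from ATAC-seq of OCR and OCRRF. A peak lay within 1 kb of 1713 of the 1746 starts (98.1%), about as often as at promoters with H3K4me3 of 20 to under 40 (98.5%) or 5 to under 20 (98.1%) and more often than under 1 (17.3%). The median level of the strongest peak was 34.9, 31.0, 24.5 and 3.29 CPM in these 4 classes. On refeeding, 2 of 1585 peaks tested at selected promoters were called (adjusted p below 0.05, fold change above 1.5 and mean log2 CPM above 1.5), both higher, against 0.221% of all peaks (0.130% higher, 0.0908% lower). Among peaks within 1 kb of any promoter, 21 of 17681 were called, 7 higher and 14 lower, so the selected promoters do not stand apart from other promoters in this.

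The first was at Txnip itself, chr3:96557466-96558489, which covers the whole printed promoter. It held 27.6, 29.5, 30.8 and 30.3 CPM in the OCR libraries and 51.2 and 43.9 CPM in the OCRRF libraries. Both refed libraries lay above all OCR libraries (log2 fold change 0.69, SE 0.083, edgeR adjusted p = 7.26e-06). The second was a weaker peak within 1 kb of the start of Imp3, chr9:56938262-56938965, with 1.59 to 3.29 CPM in OCR and 6.37 and 3.801 CPM in OCRRF (1.07, SE 0.255, adjusted p = 0.0348). Without OCRRF replicate 1, 0 peaks were called, without replicate 2 of OCRRF 3 were, and without OCR replicate 1 or 2 the number was 1.

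PU.1, the ETS factor encoded by Spi1, had a peak within 1 kb of the TSS in both libraries at 99 selected promoters in OAL (5.67%), 130 in OCR (7.45%) and 64 in OCRRF (3.67%). Over all promoters these shares were 1.84%, 2.85% and 1.39%, and in the class with H3K4me3 of 20 to under 40 they were 3.57%, 5.75% and 2.83%. The number of peaks called per library moved the same way, with 3046 and 2900 in OAL, 5464 and 3852 in OCR and 2817 and 2262 in OCRRF, and with 2 libraries per diet, made with different antibodies as far as labels and file names give them, no difference between diets was tested. GAGGAAG was found in 31.1% of the 119 distinct selected starts with an OCR peak and in 13.3% of the 1492 without one, as against 32.4% and 12.7% over all starts. A peak was present in all 3 diets at 57 selected promoters (48 genes), 3.27% against 1.14% of all promoters. They included Cfl1, Rps19, Rps12, Rps3, Kdm5a, Srsf2 and Nfya, a subunit of the factor that binds CCAAT.

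The same genes were then read in young mice, whose H3K4me3 is not part of these data. For YCR versus YAL, 6 of 1476 selected genes were called, 3 higher and 3 lower (0.203% each), against 0.257% of all genes (0.0642% higher, 0.193% lower). Hspa8, the constitutive HSC70 chaperone, stood at 1136, 1292, 1137 and 1355 CPM in YAL and 2484, 2241, 1991 and 1754 CPM in YCR. The groups did not overlap (0.80, SE 0.096, edgeR adjusted p = 0.0109). Hsp90aa1 (446 to 541 CPM in YAL, 712 to 770 CPM in YCR, 0.56, SE 0.072, adjusted p = 0.0142) and Hsp90ab1 (1563 to 1751 CPM, 1976 to 2209 CPM, 0.35, SE 0.055, adjusted p = 0.0306) were the other increases, so that all 3 were cytosolic chaperones of 25 chaperone genes in the set.

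Mycn stood at 449, 683, 708 and 564 CPM in YAL and 365, 348, 271 and 344 CPM in YCR. It fell without overlap (-0.83, SE 0.136, edgeR adjusted p = 0.0335), as did Tcp11l2 (-0.58, SE 0.091, adjusted p = 0.0285) and Ewsr1, an RNA-binding protein of the FET family (-0.39, SE 0.067, adjusted p = 0.0444). Left-out libraries decided most of these 6 calls. The number was 0 without YCR replicate 2, 1 without YAL replicate 2 or 4, 2 without YAL replicate 3, 3 without YCR replicate 3 or 4, 5 without YCR replicate 1 and 8 without YAL replicate 1. Hspa8 had adjusted p = 0.0555 without YCR replicate 2, and Mycn had adjusted p = 0.0683 to 0.103 in the 7 fits in which it was not called. DESeq2 called 63 selected genes (35 higher, 28 lower), a number given without its share over all genes. The groups did not overlap at 8.33% of selected genes, against 6.32% of all genes. At 5 CPM or more these shares were 8.48% of the selected and 7.59% of the other genes, and 0.414% and 0.389% were called by edgeR.

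For YCRRF versus YCR, edgeR called 0 of 1476 selected genes, against 0.0102% of all genes (0.0102% higher, 0% lower). An unadjusted p below 0.05 was reached by 133 selected genes, and DESeq2 called 21. Neither number is set beside a share over all genes, so neither is read as a result about the selected set. The groups did not overlap at 99 selected genes (6.71%), against 5.52% of all genes. At 5 CPM or more the shares were 6.75% of the selected and 6.79% of the other genes. Dtl was at 82.3 to 165 CPM in YCR and 28.6 to 70.4 CPM in YCRRF without overlap and did not pass the test (-1.24, SE 0.326, adjusted p = 0.306). Without YCRRF replicate 3, the library with the raised ribosomal protein RNA, the number was also 0.

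Whether the diet effect differed between the ages was fitted directly, a comparison added after the data were seen. None of 1480 selected genes was called for a different effect of restriction in old and young HSCs in edgeR's test, with 119 at an unadjusted p below 0.05. Over all 28328 genes tested, 12 were called and 2531 had such a p. For refeeding 0 of 1482 selected genes were called and 44 had such a p, against 1 and 2190 of 34340 genes. The 113 calls in old and 6 in young HSCs are thus counts within each age, and no selected gene was shown to differ between the ages. A missing call does not show that the effects were equal. Restriction was lifelong in old and short-term in young mice, so age and its length cannot be told apart. Old libraries also detected more genes (42071 to 46646) than young ones (22209 to 33496).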

How the data were processed

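RNA-seq, ATAC-seq, H3K4me3 and H3K27me3 ChIP-seq and PU.1 ChIP-seq of mouse HSCs were analysed from processed values. The authors trimmed reads, aligned RNA-seq with STAR to mm10 and deposited featureCounts counts per gene, and for ATAC-seq they deposited counts per consensus MACS peak. From the histone ChIP-seq the authors deposited a mean and a summed signal per transcript start, over windows that the files give as 750 bases downstream for H3K4me3 and 2000 bases for H3K27me3, where the methods name a window on both sides of the TSS for H3K4me3 and the same downstream window for H3K27me3. For PU.1 the authors deposited MACS peaks with a score, a fold enrichment, a −log10 p and a −log10 q. The deposited histone and peak files hold no read counts, so no counting interval is given for them. How multi-mapping reads and strand were counted for RNA-seq is not given in the sources used here, so overlapping and near-identical genes are uncertain. OAL libraries of both histone marks and of ATAC-seq, and knockdown libraries, were not used here. The paper and the labels name different RNA library kits.

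The rule, the gene lists and the comparisons were chosen with earlier results of these data known. Promoters were joined by transcript and matched to RNA by symbol (1489 genes) or synonym (8), leaving 9 unmatched. Counts of all genes past filterByExpr were TMM-scaled and tested with edgeR's quasi-likelihood test, Benjamini-Hochberg adjusted over all genes tested, each comparison on its own 2 groups. SEs were taken as the size of the log2 fold change over the root of its F statistic. Peaks were counted at a promoter within 1 kb of the TSS, in both libraries for PU.1. RPKM used exon lengths of a GENCODE release one older than that of the counts, with 98.4% of genes matched. Named genes were the 8 with the highest H3K4me3, 2 on each side of the limit, the called genes with the largest changes among those of at least 5 CPM without overlap (8 in each direction for OCR versus OAL, 4 otherwise), the 5 highest and 5 lowest in RNA, the leading and called genes of each list and the called ATAC peaks. Other genes were chosen after their values were seen. A promoter next to the limit that the rule names is not reported here. Other settings were DESeq2 tests and size factors, factors from abundant genes, other filters, other H3K4me3 limits, a replicate block and leaving out each library. In simulated data, edgeR recovered 98.5% (OCR versus OAL), 95.5% (OCRRF versus OCR), 65% (YCR versus YAL) and 38.5% (YCRRF versus YCR) of 200 genes changed 2-fold. Replicate numbers were not treated as pairs, since 1 of 14 same-numbered pairs of libraries had a correlation of deviations over 0.1. R 4.3.3, edgeR 4.0.16, DESeq2 1.42.0, Python 3.11, pandas 2.3.3 and scipy 1.17.1 were used. There were 0 unmapped sample columns.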

Additional observations from a re-analysis of the deposited data

Results flagged for a closer look

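Among 162 groups of 4 libraries examined for the named genes and the list of ribosomal protein genes, 6 held a library whose gap to its nearest neighbour was large for the group's range, and chance marks about 1 in 20 groups. YCRRF replicate 3 was high for Rpl5 (1228 CPM, nearest library 516 CPM), for Actb (3275 CPM, nearest 2195 CPM) and for the median of the 66 selected ribosomal protein genes (1220 CPM, nearest 479 CPM). YCRRF replicate 4 was low for Txnip (1785 CPM, nearest 1927 CPM) and high for Klf10 (297 CPM, nearest 224 CPM). YAL replicate 1 was low for Trim47 (319 CPM, nearest 404 CPM).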

How the results depend on the processing

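The number of selected promoters was set by the limit on H3K4me3, with 6207 at a limit of 30 and 152 at a limit of 50. Using 1 replicate alone gave 1892 to 2460. At limits of 30 and 50 the called genes numbered 397 and 6 for OCR versus OAL and 376 and 8 for OCRRF versus OCR, and a limit of 30 gave 15 for YCR versus YAL. DESeq2 called 122 for OCR versus OAL, where it called 1927 of all 27150 genes tested. It called 351 for OCRRF versus OCR, 63 between YCR and YAL, and 21 between YCRRF and YCR, given here without the numbers over all genes. Without a filter on low counts YCR versus YAL had 25 and YCRRF versus YCR 13, and with at least 10 counts in every library YCR versus YAL had 17. With 1 library left out, the numbers ran from 81 to 132, from 19 to 301, from 0 to 8 and stayed at 0 in the 4 comparisons. For ATAC-seq, 14 peaks were called by adjusted p alone, 1 within 500 bases, 1 by DESeq2 and 0 to 3 with 1 library left out. The RNA level in OCR was 6.736 as log2(CPM + 1), without division by exon length, and 4.288 to 4.36 with 1 library left out. PU.1 peaks lay at 4.58% (OAL) and 2.81% (OCRRF) of selected promoters within 500 bases and at 5.96% (OCR) at a −log10 q of at least 5. In single libraries the shares were 7.85% to 8.93% in OAL, 9.51% to 14.3% in OCR and 6.01% to 6.76% in OCRRF. The cause of these shifts was not tested.

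A replicate block, which takes libraries with the same number as pairs, gave 108 selected genes for OCR versus OAL, 356 for OCRRF versus OCR, 0 for both young comparisons and 4 ATAC peaks. With 2 OCRRF libraries, OCR replicates 3 and 4 had no partner, and the ATAC fit left them out. The OCRRF versus OCR numbers under the block are therefore not the effect of pairing alone. Correlations of deviations in the 14 same-numbered pairs ran from -0.183 to 0.108.

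No named gene reversed direction under these settings. For OCR versus OAL, 20 of 28 named genes kept their call in every setting run, for OCRRF versus OCR 7 of 27, and for YCR versus YAL 0 of 6. Self-tests at the depth of YCRRF versus YCR recovered 38.5% of genes changed 2-fold.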
